A study of Mus musculus with 4 samples.

Results

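Cycling theca and stromal cells were cells of the mouse ovary that held transcripts of mitosis genes together with transcripts of theca or stroma genes and few of the granulosa cell hormone genes. They were chosen from measured values. A member had at least 500 genes, over 1000 UMIs (molecular tags by which each captured transcript is counted once) and under 10% mitochondrial UMIs. It showed at least 3 of the 8 cycling genes Top2a, Mki67, Ube2c, Prc1, Aurkb, Tpx2, Hmmr and Kif11, and at least 2 of the 6 mesenchymal genes Dcn, Col1a2, Lum, Asb4, Enpep and Hhip. It held under 5 UMIs of Inha, Inhbb and Amh per 10000, and fewer than 2 of the 4 endothelial and immune genes Flt1, Cldn5, Lyz2 and Ptprc. The rule found 1431 such cells among 47782 cells that passed the limits on depth.

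The study compared ovaries of 8-week-old female mice of the same litter by single-cell RNA sequencing of 3′ transcript ends on the 10x Genomics platform, with 2 libraries of each genotype. Fosl2F/F mice, the controls, carried the floxed Fosl2 gene (Fosl2flox/flox). Fosl2cKO mice carried the same floxed gene and Cyp19a1-Cre, in which the recombinase is driven by the promoter of the aromatase gene and acts in granulosa cells (GCs). The comparison asked what loss of the AP-1 factor Fosl2 from GCs does to the cells of the ovary, so theca and stromal cells were neighbours of the cells in which the driver acts. Values per library are given in the order Fosl2F/F 1, Fosl2F/F 2, Fosl2cKO 1 and Fosl2cKO 2. The number of females was 2 for each genotype, as many as the libraries, but no label ties a female to a library, so p-values measured the spread between libraries only.

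Theca cells form the outer wall of the growing follicle. They arise from stromal progenitors, respond to hedgehog ligands made by GCs, and make androgen through Cyp17a1, which GCs turn into oestrogen. The stroma around them holds fibroblast-like cells that make the collagen matrix. Both compartments must add cells as a follicle grows, and a cell passes from G1 through S phase, where DNA is copied, to G2 and mitosis, each step with its own set of induced genes.

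The 4 libraries held 8654 to 28155 barcodes and 120327227 to 148836173 UMIs, and 7175 to 24320 cells were kept. The Fosl2F/F 2 library stood apart, with more and shallower cells, and its members had the highest summed levels of oocyte markers (342 CPM, UMIs per 1000000 UMIs of the class, against 38.3 to 92.8 CPM elsewhere) and luteal markers (795 CPM against 136 to 230 CPM). The Fosl2cKO 1 library stood apart in the members' epithelial markers, at 808 CPM against 120 to 251 CPM, and in Cyp17a1, given below. Pairs of libraries shared 15 to 81 barcodes, and 0 members. Fosl2, the targeted gene, stood at 185, 292, 303 and 197 CPM in the members and at 131, 157, 136 and 98.6 CPM in cycling GCs, the class in which the Cre driver acts. The genotypes overlapped in both classes, so these levels did not check the labels, and the libraries are named below as they were labelled. The paper reports loss of the protein from GCs of Fosl2cKO mice by immunoblot, a measure of protein and not of RNA. Cyp19a1, whose promoter drives Cre, was at 1.66, 0.785, 0.224 and 0.318 CPM in the members.

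The members numbered 165, 708, 177 and 381 cells. Their summed depth was 3615058, 7645689, 4469710 and 9425507 UMIs, with medians of 17910, 7800, 20493 and 21214 UMIs per cell. Fosl2F/F 2 was the shallowest library per cell and held the most members, and Fosl2cKO 2 held the most UMIs of members. Members were compared with 2 other classes of the same libraries. Non-cycling theca-stromal cells passed the same mesenchymal, granulosa, endothelial and immune limits with 0 of the 8 cycling genes, and numbered 771, 4132, 1233 and 1528. Cycling GCs had at least 3 cycling genes, fewer than 2 mesenchymal genes and at least 5 of the 3 hormone genes' UMIs per 10000, and numbered 1249, 1822, 863 and 806. The members' median depth was 2.33, 2.54, 2.35 and 2.83 times that of the non-cycling cells. A deeper cell reaches 3 detected genes more easily, and the part of depth in the differences between these classes was not tested beyond the thinned values given below. Because the rule used genes of the same cells, every level of the members against another class is a description without a test.

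The 4 markers of the label are genes of the rule. Their detection in members follows from the choice of the cells, and is a description that does not check the label. Top2a, which untangles DNA before chromosomes separate, had a UMI in 82.4%, 84.3%, 78.0% and 84.3% of members, and Hmmr, a spindle protein, in 70.9%, 53.8%, 52.0% and 63.0%. Col1a2, a chain of type I collagen, had a UMI in 98.0% to 99.5% of members, and Enpep, an aminopeptidase of the cell surface, in 78.2%, 82.5%, 67.2% and 89.8%. Col1a2 was detected in nearly all members, and Hmmr was the least often seen of the 4 genes in each library. Members near the limits of the rule differed in degree from those beyond. Cells with exactly 3 cycling genes numbered 29, 137, 57 and 77, with 199, 338, 197 and 190 CPM of the 8 genes summed, and cells with 2, just outside, had 155, 251, 123 and 147 CPM. Cells with all 8 genes numbered 75, 167, 57 and 143, at 3069, 3387, 3331 and 3342 CPM. At the granulosa limit, 12, 27, 3 and 5 members held 4 to 5 UMIs per 10000, and 6, 17, 3 and 2 cells that met every other criterion held 5 to 6. Most of the excluded cells lay far beyond it, with medians of 55.8, 35.7, 47.1 and 43.5 UMIs per 10000 against 1.83, 1.14, 0.839 and 0.734 in members.

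Genes of other cell types were measured in the members. The 10 GC markers summed to 400, 450, 325 and 307 CPM, against 8494, 5510, 4793 and 5594 CPM in cycling GCs. The 11 immune markers summed to 19.4, 35.3, 29.98 and 23.8 CPM and the 9 endothelial markers to 153, 139, 194 and 151 CPM, above the 122, 116, 94.8 and 108 CPM of non-cycling theca-stromal cells. The 10 pericyte or smooth muscle markers summed to 1518, 1197, 1644 and 1324 CPM in members and 2119, 1284, 1866 and 1199 CPM in non-cycling cells. The part of these cells in the differences between classes was not tested. At least 4 of 8 epithelial, 3 of 7 oocyte or 3 of 5 luteal markers were present in 12, 65, 17 and 25 members. At least 4 of 10 pericyte or smooth muscle markers, among them the contractile gene Acta2, which theca cells also express, were present in 31, 96, 61 and 83 members. Scrublet, a caller of doublets (droplets with more than 1 cell), marked 4.24%, 20.2%, 9.04% and 9.97% of members and 7.03%, 19.5%, 5.74% and 6.01% of all cells. The marked share was above that of all cells in 3 of 4 libraries, with the larger gaps in the libraries labelled Fosl2cKO. Of non-cycling theca-stromal cells 1.95%, 15.1%, 4.30% and 2.75% were marked, below the members in each library. The part of doublets in the differences between these classes was not tested. Marked cells stayed in, and values without them are given where they changed a call.

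S-phase genes and the G2/M genes outside the rule were higher in members. Of the 42 S-phase genes fixed for this comparison, 40 reached 20 CPM and 40 were higher in members than in non-cycling cells in all 4 libraries, with a median difference of 2.09 on the log2 scale (log2 of CPM + 1, used for all differences between classes). Of the 42 further G2/M genes, 41 reached 20 CPM and 41 were higher, with a median of 3.59. Over all 7792 genes at this level 32.7% were higher in all 4 libraries and 29.2% lower. The S-phase genes summed to 3015, 3241, 2595 and 3235 CPM in members and 909, 1113, 923 and 939 CPM in non-cycling cells. Members held more of these transcripts in each library by a similar amount, with Fosl2cKO 1 the lowest.

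Pclaf, a partner of the replication clamp PCNA and not in the rule, was at 511, 440, 304 and 453 CPM in members against 6.87, 13.7, 5.57 and 8.09 CPM in non-cycling cells. Ccna2, the cyclin of S and G2 phases, was at 137, 131, 127 and 150 CPM against 3.64, 4.36, 4.24 and 3.56 CPM. The 4 libraries lay close together in each class and the classes lay far apart. By size of the difference the 15 leading genes were the 8 cycling genes of the rule, which the non-cycling cells lack by definition, and then Depdc1a, Pclaf, Knl1, Ccna2, Shcbp1, Pimreg and Kif15. Knl1, a scaffold of the kinetochore, was at 97.1, 134, 116 and 141 CPM in members. Among S-phase genes the smallest differences were those of Ubr7, Nasp and Slbp, with lowest values of 0.11, 0.35 and 0.35, and Nasp, a histone chaperone, was already at 141 to 183 CPM in non-cycling cells.

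The promoters of the rule's cycling genes carried a shared element. The cell cycle homology region (CHR, letters TTTGAA) is an element through which a repressor complex holds G2/M genes silent outside the cycle, often beside CCAAT boxes. Windows from 250 bases before to 50 after the start of each gene were taken from RefSeq (GRCm38.p6) and searched on both strands. The 6 of 8 cycling genes with a window, all but Aurkb and Tpx2, are shown around the CHR because these are the genes on which the members were chosen. Capitals mark TTTGAA, or TTCAAA where the element lies on the other strand, and each line runs 5′ to 3′ on the strand of the gene.
Top2a: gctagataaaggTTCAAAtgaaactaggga
Mki67: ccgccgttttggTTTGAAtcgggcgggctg
Ube2c: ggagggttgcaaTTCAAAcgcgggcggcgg
Prc1: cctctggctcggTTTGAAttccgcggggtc
Hmmr: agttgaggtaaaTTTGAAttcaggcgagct
Kif11: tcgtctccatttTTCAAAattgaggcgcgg

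These stretches lie at chr11:99024195-99024224 on the minus strand for Top2a, chr7:135716460-135716489 on the minus strand for Mki67, chr2:164769888-164769917 on the plus strand for Ube2c, chr7:80294434-80294463 on the plus strand for Prc1, chr11:40733412-40733441 on the minus strand for Hmmr and chr19:37376351-37376380 on the plus strand for Kif11. Hmmr carried the element 8 bases after its start, and in the other 5 genes its first base lay 5 to 98 bases before the start. The letters were found in 6 of 6 rule genes, in 24 of 38 other G2/M genes (63.2%) and in 6 of 30 S-phase genes (20%), against 20.2% of all 27025 genes with a window. CCAAT, read as CCAAT or ATTGG, was found in 6 of 6, 28 of 38 (73.7%) and 21 of 30 (70.0%), against 41.1% of all genes. TTCCCGC, a core of sites for E2F factors, was found in 0 of 6, 1 of 38 (2.63%) and 14 of 30 (46.7%), against 5.29%. The lists were fixed by name, and a match describes letters and not a bound site.

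**Figure D1:**
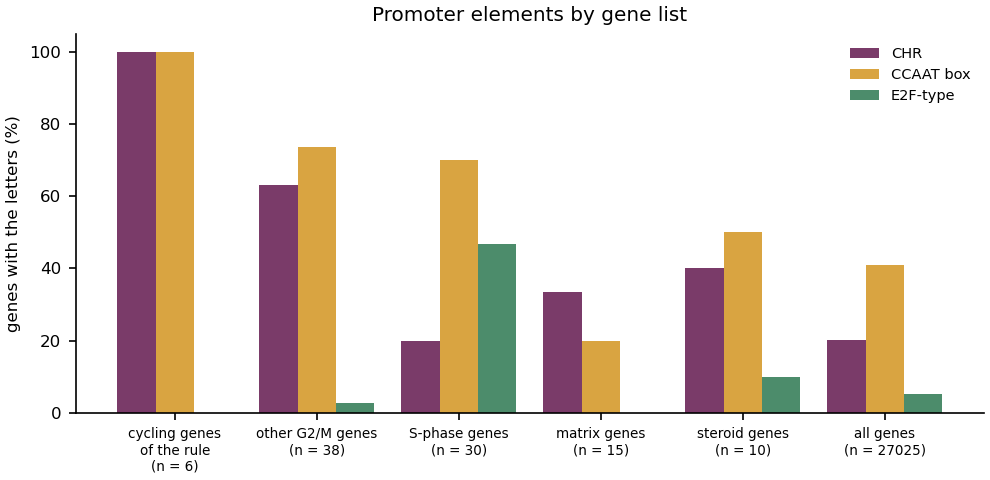
Share of genes (%, vertical axis) whose window of 250 bases before to 50 after the start holds the CHR, CCAAT box or E2F-type letters on either strand, by gene list, with n the genes with a RefSeq window. The CHR bar stands at 63.2% for other G2/M genes and at 20% for S-phase genes, and the E2F-type bar at 2.63% and 46.7%, against 20.2% and 5.29% over all genes.

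The D-type cyclins of the members differed from those of cycling GCs. Ccnd1, Ccnd2 and Ccnd3 encode the D-type cyclins that pair with Cdk4 and Cdk6 to release E2F factors from Rb1. Ccnd1 was at 52.3, 45.0, 61.7 and 52.4 CPM in members, 29.9, 27.03, 22.1 and 25.2 CPM in non-cycling theca-stromal cells and 0.772, 3.05, 1.30 and 1.39 CPM in cycling GCs. Ccnd2 was at 115, 121, 221 and 98.5 CPM in members, 182, 202, 258 and 143 CPM in non-cycling cells and 653, 667, 801 and 547 CPM in cycling GCs. The classes did not overlap for Ccnd1, and in each library Ccnd2 was lowest in the members and highest in cycling GCs. Ccnd3 was at 61.4, 61.6, 70.9 and 62.6 CPM in members, below the 102 to 143 CPM of non-cycling cells and above the 27.003 to 42.0 CPM of cycling GCs. Ccna2, by contrast, differed between members and cycling GCs by only -0.11 to 0.11 on the log2 scale.

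Of 12 cyclin and CDK genes at 20 CPM or more, 7 were higher and 4 lower in members than in non-cycling cells in all 4 libraries. Cdk4 was higher by 0.71 to 0.96 on the log2 scale and Rbl1, a relative of Rb1, by 1.60 to 2.03. Myc, a growth factor-responsive transcription factor, was lower by 0.22 to 0.57 in size in each library, at 71.4, 87.5, 134 and 62.2 CPM against 106, 112, 161 and 72.5 CPM. Cdk6, at 79.9, 120, 116 and 91.1 CPM, and Rb1, at 45.1, 62.3, 52.4 and 55.2 CPM, were lower in members than in cycling GCs, which held 243 to 281 and 97.9 to 130 CPM.

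The CDK inhibitors divided. Of 4 at 20 CPM or more, 2 were higher in members than in non-cycling cells in every library and 4 were higher than in cycling GCs, against 32.7% and 30.7% of all genes. Cdkn2c, which blocks Cdk4 and Cdk6, was at 71.6, 50.9, 94.4 and 117 CPM in members, 62.7, 43.6, 59.3 and 51.2 CPM in non-cycling cells and 33.3, 26.4, 37.0 and 43.5 CPM in cycling GCs. Cdkn2d, of the same family, was at 72.5, 51.4, 51.9 and 52.5 CPM against 22.7, 21.5, 29.95 and 18.8 CPM in non-cycling cells. Cdkn1a, an inhibitor that rises with stress and differentiation, was lower in members, at 35.1, 56.4, 66.9 and 22.7 CPM against 54.8, 66.5, 79.6 and 25.5 CPM. Its order over libraries was the same in both classes, with Fosl2cKO 1 highest and Fosl2cKO 2 lowest.

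**Figure D2:**
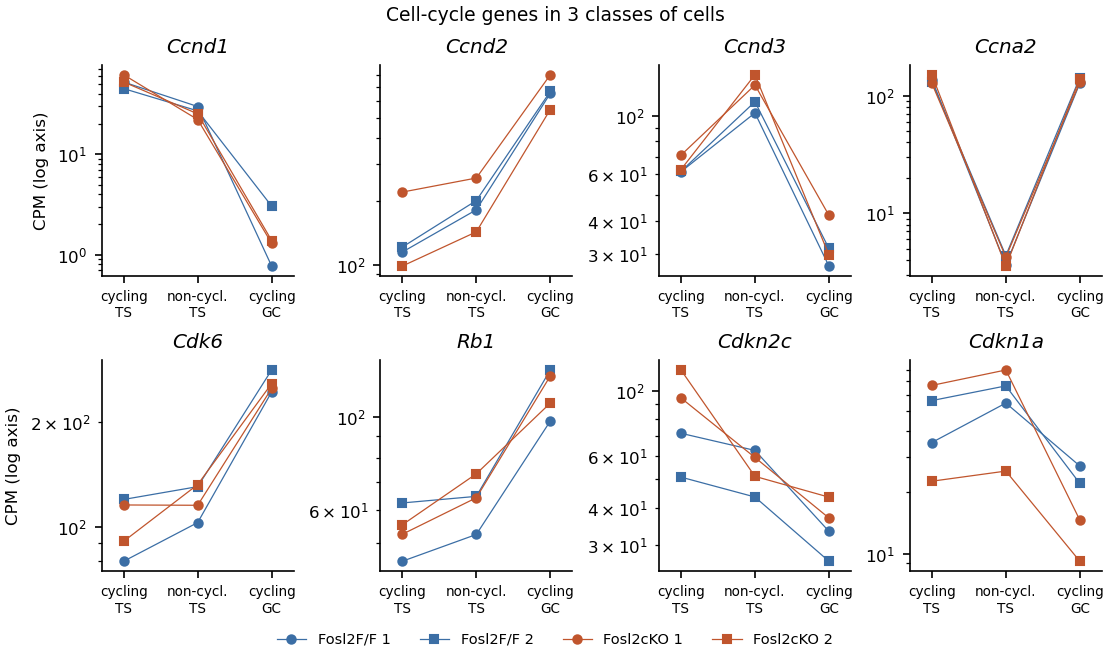
Level in CPM (log axis, its range set for each gene) of 8 cell-cycle genes in cycling theca-stromal cells (cycling TS), non-cycling theca-stromal cells (non-cycl. TS) and cycling GCs, with 1 line for each library. Ccnd1 falls from 45.0 to 61.7 CPM in the members to 0.772 to 3.05 CPM in cycling GCs, Ccnd2 and Cdk6 run the other way, and Ccna2 is alike in both cycling classes.

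Ptch1 and Gli1, response genes of the hedgehog pathway, were higher in the cycling cells than in the non-cycling cells of each library. Ptch1, the receptor of hedgehog ligands and itself a target of the pathway, was at 298, 344, 341 and 574 CPM in members, 231, 231, 180 and 359 CPM in non-cycling cells and 90.7, 97.2, 129 and 137 CPM in cycling GCs. Gli1, a transcription factor that the pathway induces, was at 38.7, 28.1, 29.5 and 37.0 CPM in members and 21.0, 18.4, 19.3 and 21.7 CPM in non-cycling cells, and 0.404 to 0.747 CPM in cycling GCs. Fosl2cKO 2 was highest for Ptch1 in all 3 classes, and for Gli1 the members and the non-cycling cells did not overlap. Hhip, a target that binds the ligands and a gene of the rule, was at 205, 214, 156 and 376 CPM against 102, 123, 64.0 and 160 CPM. The 9 genes of the pathway did not differ as 1 block. Against non-cycling cells 3 of them, Hhip included, were higher in all 4 libraries and 2 were lower, shares near the 32.7% and 29.2% of all genes. Against cycling GCs all 9 were higher, where 30.7% of all genes were. Boc, a co-receptor, was lower by 0.45 to 0.72 in size, and Smo, the signal transducer, was lower by 0.01 to 0.32.

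The share of cells with a UMI was compared at 1 depth, with each cell thinned to 2000 UMIs at random and shallower cells left out. Cells with Lyz2 or Ptprc and no mesenchymal gene, called immune cells here, served as a comparison class for free RNA. Whether this class also holds cells that make steroids was not tested, so its shares are not an established level of free RNA. Ptch1 had a UMI in 35.8%, 50.1%, 39.8% and 56.8% of thinned members, in 29.2%, 30.5%, 23.2% and 36.3% of non-cycling cells and in 3.78%, 6.35%, 3.24% and 4.59% of immune cells. Unthinned, the members' shares were 84.8%, 83.3%, 86.4% and 93.9%. Gli1 had a UMI in 8.48%, 4.85%, 8.52% and 7.63% of thinned members, 4.49%, 3.82%, 4.65% and 3.69% of non-cycling cells and at most 0.17% of immune cells. Both genes were thus above the immune cells and above the non-cycling cells in each library at equal depth. For 2 of these gaps the share of non-cycling cells lay within the members' 95% exact binomial interval. They were those of Ptch1 in Fosl2F/F 1 (28.5% to 43.6%) and Gli1 in Fosl2F/F 2 (3.38% to 6.71%).

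Genes of steroid making differed in both directions. Of 14 such genes at 20 CPM or more, 3 were higher in members than in non-cycling cells in all 4 libraries and 4 were lower, not far from the shares of all genes (32.7% and 29.2%). Scarb1, which takes up cholesterol from lipoproteins, was higher by 0.41 to 0.79 and the luteinizing hormone receptor Lhcgr by 0.08 to 0.67 on the log2 scale. Star, which carries cholesterol into mitochondria, was lower by 0.10 to 1.13 and Por, which feeds electrons to Cyp17a1, by 0.45 to 0.84. For several of these genes the members' share did not exceed that of immune cells. Cyp11a1, which makes the parent steroid pregnenolone, had a UMI in 20%, 39.8%, 15.9% and 13.4% of thinned members. It had one in 25.6%, 62.1%, 31.5% and 25.4% of immune cells. The immune shares also lay above the 19.4%, 50.2%, 23.7% and 18.1% of non-cycling theca-stromal cells, and are not an established level of free RNA. Neither expression of Cyp11a1 by the members nor its absence is therefore read from these shares. The members' share was also at or below that of immune cells in each library for Star, at 4.85%, 12.4%, 12.5% and 5.53% of members against 5.88%, 26.1%, 16.9% and 6.76% of immune cells, and for Hsd3b1. Cycling GCs, closer to the members in depth, held Cyp11a1 in 21.0%, 35.9%, 17.2% and 9.26% and Star in 1.94%, 7.21%, 3.04% and 1.88% of thinned cells. At this depth the members lay above them in 2 libraries for Cyp11a1 and in each library for Star. Thinned to 3000 UMIs, Star in Fosl2F/F 1 was in 2.45% of members and 2.47% of cycling GCs, so the order was not kept there. A reading as background depends on the class the members are set against and was not tested. Lhcgr had a UMI in 9.09%, 13.3%, 5.11% and 12.6% of thinned members and in 3.36%, 24.4%, 5.62% and 10.8% of immune cells, and only in Fosl2F/F 1 did the immune share lie below the members' 95% exact binomial interval (5.18% to 14.6%). In Fosl2cKO 2 the immune share lay within the members' interval of 9.46% to 16.4%. Thinned non-cycling theca-stromal cells had an Lhcgr UMI in 7.66%, 17.5%, 4.07% and 8.32%, so at equal depth the members lay below them in Fosl2F/F 2.

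Cyp17a1, the androgen-making enzyme of theca cells, was at 107, 74.7, 2.24 and 174 CPM in members and 141, 158, 2.90 and 181 CPM in non-cycling cells. Fosl2cKO 1 was near 0 in both classes while Fosl2cKO 2 was the highest. At 2000 UMIs per cell, 7.27% of members had a Cyp17a1 UMI in Fosl2F/F 1 (12 of 165, 95% exact binomial interval 3.81% to 12.4%), 4.85% in Fosl2F/F 2 (34 of 701, 3.38% to 6.71%) and 8.16% in Fosl2cKO 2 (31 of 380, 5.61% to 11.4%). In Fosl2cKO 1 there were 0 of 176, where the exact interval reaches 2.07% and the limit of 3 counts is 1.70%, both for counting error only. Immune cells stood at 1.68%, 1.79%, 0 of 587 (allowing up to 0.511%) and 2.43%, with median depths of 6822, 3491, 7087 and 6209.5 UMIs against 17910, 7840, 20588.5 and 21214 UMIs in the members so thinned. Thinned non-cycling theca-stromal cells had a Cyp17a1 UMI in 4.76%, 6.82%, 0.415% and 5.03%. At equal depth the members' share was thus higher in Fosl2F/F 1 and Fosl2cKO 2 and lower in Fosl2F/F 2 and Fosl2cKO 1. Unthinned, the members' shares were 21.2%, 9.99%, 2.84% and 16.3%. The thinned share was lower by 1.98 percentage points in the libraries labelled Fosl2cKO, on average, with an exact two-sided permutation p of 1, and 2 against 2 libraries cannot give a p below 0.33. The difference rested on Fosl2cKO 1, and without that library it was 2.10 points in the other direction.

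Most matrix genes were lower in the members than in the non-cycling theca-stromal cells. Of 19 matrix genes at 20 CPM or more, 10 were lower in members than in non-cycling cells in all 4 libraries and 3 were higher, against 29.2% and 32.7% of all genes. The 3 were Col4a1, a basement membrane collagen, higher by 0.07 to 0.71, and Col6a1 and Col6a2, higher by 0.18 to 0.34 and 0.11 to 0.72 on the log2 scale. Ogn, a small proteoglycan of collagen fibrils, was at 83.3, 67.1, 98.7 and 84.7 CPM in members against 269, 252, 185 and 245 CPM, and Mfap5, a microfibril protein, at 62.0, 31.4, 71.4 and 43.8 CPM against 125, 56.9, 117 and 92.9 CPM. Both were lower in members in each library, and for Ogn the ranges of the classes lay apart. Among the genes of the rule, Dcn was at 551, 383, 647 and 463 CPM against 1118, 1001, 1580 and 1111 CPM and Lum at 178, 143, 198 and 137 CPM against 428, 382, 527 and 386 CPM, while Enpep was higher, at 324, 385, 291 and 495 CPM against 171, 211, 104 and 237 CPM. The classes were not matched for their mix of theca and stromal cells. The part of this mix in the differences from non-cycling cells, for matrix genes and the other lists, was not tested. Set against cycling GCs, 17 of 18 matrix genes were higher in members and Fbln1 was lower, against 30.7% and 41.3% of all 8049 genes compared.

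Growth factor receptors and mesenchymal transcription factors were mostly lower. Of 15 receptors at 20 CPM or more, 11 were lower in members than in non-cycling cells in every library and 0 were higher. All genes gave 29.2% and 32.7%, the shares against which the counts below also stand. These shares were not matched for gene span, and genes of long span were more often lower, as given under other observations. Pdgfra, the platelet-derived growth factor receptor of fibroblasts, was at 171, 151, 189 and 219 CPM against 235, 228, 278 and 331 CPM. The insulin receptor Insr was lower by 0.70 to 1.08 in size, the TGF-beta co-receptor Tgfbr3 by 0.54 to 0.97 and the BMP receptor Acvr1 by 0.59 to 0.81. Of 9 transcription factors, 6 were lower and 1, Nr2f2, was higher, by 0.04 to 0.20. Gata6 was lower by 0.69 to 1.38 and Tcf21, a factor of stromal progenitors, by 0.36 to 0.69. Wt1 was at 52.0, 68.3, 223 and 69.3 CPM against 153, 243, 289 and 204 CPM, and its high value fell in Fosl2cKO 1, where epithelial markers were also highest in the members. Of 4 steroid receptors, 2 were lower in every library, Esr2 by 0.67 to 1.55 and the glucocorticoid receptor Nr3c1 by 0.14 to 0.42. Of 6 pericyte and smooth muscle genes, 2 were lower in every library, Myh11 by 0.75 to 0.86 and Tagln by 0.62 to 1.15. The share lower, 33.3%, was near that of all genes, while 0 were higher, against 32.7% of all genes. Acta2 had differences of both signs, from -0.25 to 0.58.

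AP-1 and early response genes were lower in the cycling cells too. Of 7 AP-1 genes at 20 CPM or more, 6 were lower than in non-cycling cells in all 4 libraries, against 29.2% of all genes. Fos was at 2354, 2311, 2502 and 1673 CPM against 2898, 3501, 3481 and 2310 CPM, and Fosb at 844, 1059, 1139 and 898 CPM against 1502, 1729, 1764 and 1523 CPM. Fosl2 itself was the exception, with differences of -0.16 to 0.07. Of 8 early response and heat shock genes, 6 were lower, among them Ier3, by 0.69 to 1.07, and Btg2, an antiproliferative gene, by 0.21 to 0.45. In cycling GCs Fos was lower than in the members of the same library, at 1454 to 1949 CPM.

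**Figure D3:**
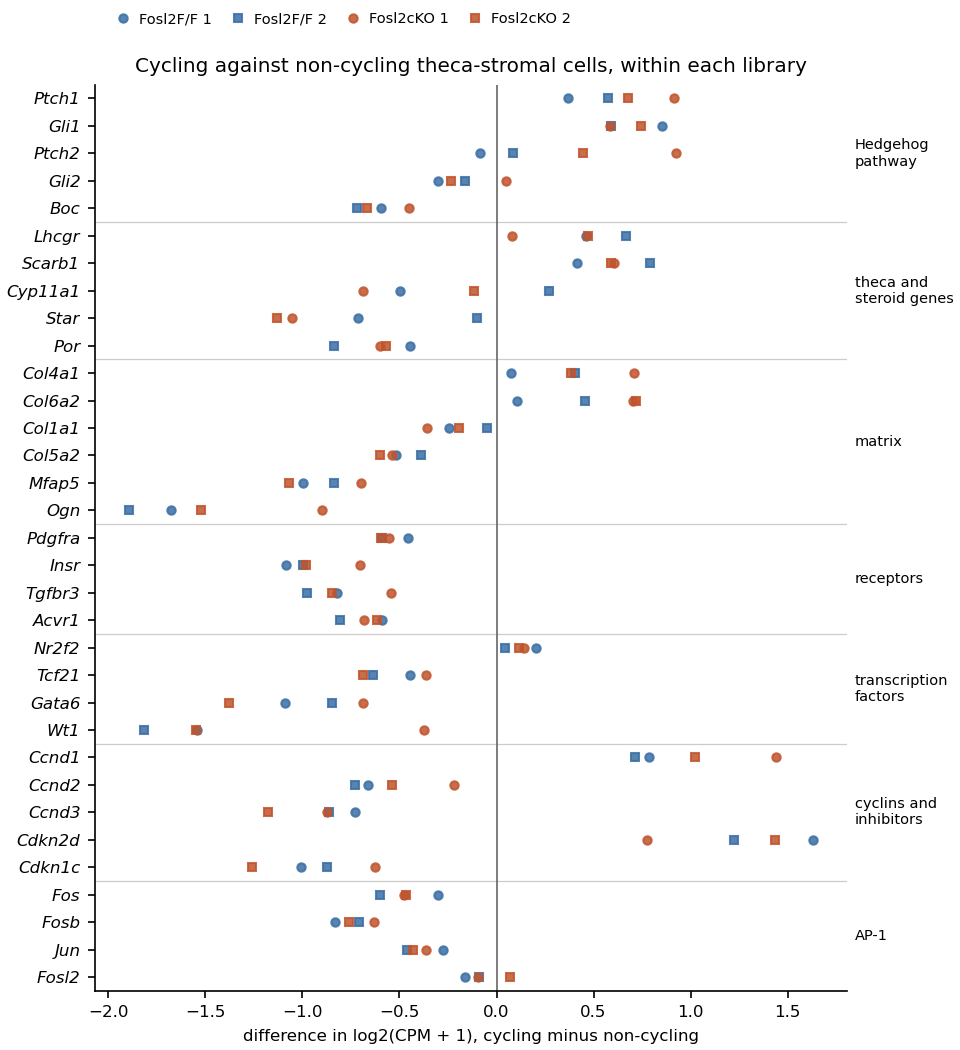
Difference in log2(CPM + 1) between cycling and non-cycling theca-stromal cells (horizontal axis) for genes of 7 groups, with 1 point for each library, blue for Fosl2F/F and orange for Fosl2cKO. Ptch1, Gli1, Ccnd1 and Cdkn2d lie right of 0 in all 4 libraries, and Ogn, Insr, Gata6, Ccnd3 and Fosb lie left of it.

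The genes that stood lowest in members against non-cycling cells, by a rule of size, were Nlgn1, Enpp2, Kcnk2, Pcdh9, Rad51b, Dpp6, Slc24a3, Glis3, Naaladl2, Nkain3, Npr3, Lmcd1, Nbl1, Gsn and Csmd1. Nlgn1, an adhesion protein, was at 6.92, 9.94, 22.4 and 7.64 CPM against 77.9, 91.8, 144 and 104 CPM. Rad51b, a gene of DNA repair by recombination, was at 222, 314, 333 and 353 CPM against 886, 924, 1119 and 1493 CPM. Gsn, which severs actin filaments, was at 146, 102, 283 and 109 CPM against 461, 286, 724 and 272 CPM. All 15 lay lower in each library, as the rule required.

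The members were divided by the theca and stroma genes of the rule. A member was called theca-leaning where its UMIs of Enpep, Asb4 and Hhip outnumbered those of Dcn and Lum, and stroma-leaning in the opposite case. Theca-leaning cells made up 47.3%, 58.6%, 44.1% and 64.8% of members and stroma-leaning cells 47.9%, 35.0%, 54.2% and 31.5%, and 21, 171, 10 and 37 cells lay within 1 UMI of the boundary. Genes of both kinds were detected in 81.8%, 79.8%, 77.4% and 88.5% of members. The split is a range cut by a score and not a pair of cell types, and it used the 5 genes named.

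Genes outside the score differed between the ends of this range. Rgs5, a G-protein regulator known from pericytes, was at 167, 96.2, 88.7 and 96.8 CPM in theca-leaning cells and 7.01, 4.34, 12.02 and 1.76 CPM in stroma-leaning cells. Nr5a1, the master regulator of steroid genes, was at 80.3, 41.8, 40.7 and 71.4 CPM against 29.8, 26.4, 16.0 and 28.5 CPM. Cyp17a1 was at 144, 117, 4.16 and 213 CPM against 77.7, 17.3, 0.445 and 110 CPM. Each was higher in the theca-leaning cells of every library. In Fosl2cKO 1 the Cyp17a1 difference rested on few UMIs, as 2.84% of members held any before thinning. The 10 pericyte or smooth muscle markers summed to 1629, 1052, 1626 and 1207 CPM in theca-leaning cells. In stroma-leaning cells they summed to 1487, 1517, 1688 and 1273 CPM, so they were higher in theca-leaning cells only in Fosl2F/F 1. The 16 genes of steroid making summed to more in theca-leaning cells in 3 libraries. In Fosl2F/F 2 they summed to 5710 CPM against 6586 CPM in stroma-leaning cells. Star, also of this list, ran the other way and was higher in the stroma-leaning cells of every library. Ccnd1 was higher in theca-leaning cells, at 66.7, 53.3, 71.6 and 60.7 CPM against 39.1, 32.9, 53.0 and 35.5 CPM. Ptch1 did not divide in the same way, at 298, 398, 424 and 641 CPM against 304, 274, 262 and 435 CPM, with Fosl2F/F 1 level.

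At the stroma-leaning end, Gata6 was at 46.7, 59.3, 95.3 and 75.2 CPM against 5.65, 28.2, 15.7 and 16.6 CPM. Wt1 was at 91.1, 112, 409 and 170 CPM against 6.78, 43.1, 36.0 and 26.4 CPM. The 20 matrix genes summed to 8812, 7680, 9073 and 8933 CPM in stroma-leaning cells against 6764, 7652, 9609 and 7880 CPM. Fosl2F/F 2 was nearly level and Fosl2cKO 1 ran the other way, so matrix genes did not mark this end in each library. Epithelial genes were higher in the stroma-leaning cells of each library. Krt18, a keratin, was at 139, 55.7, 302 and 96.7 CPM against 2.26, 14.2, 6.47 and 0.483 CPM, and the 8 epithelial markers summed to 515, 220, 1562 and 414 CPM against 9.61, 65.5, 48.1 and 6.77 CPM. The part of cells with epithelial transcripts in the Wt1 and Gata6 levels was not tested. The 8 cycling genes summed to 2071, 2118, 1788 and 2063 CPM in theca-leaning and 1864, 1651, 1590 and 1510 CPM in stroma-leaning members.

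**Figure D4:**
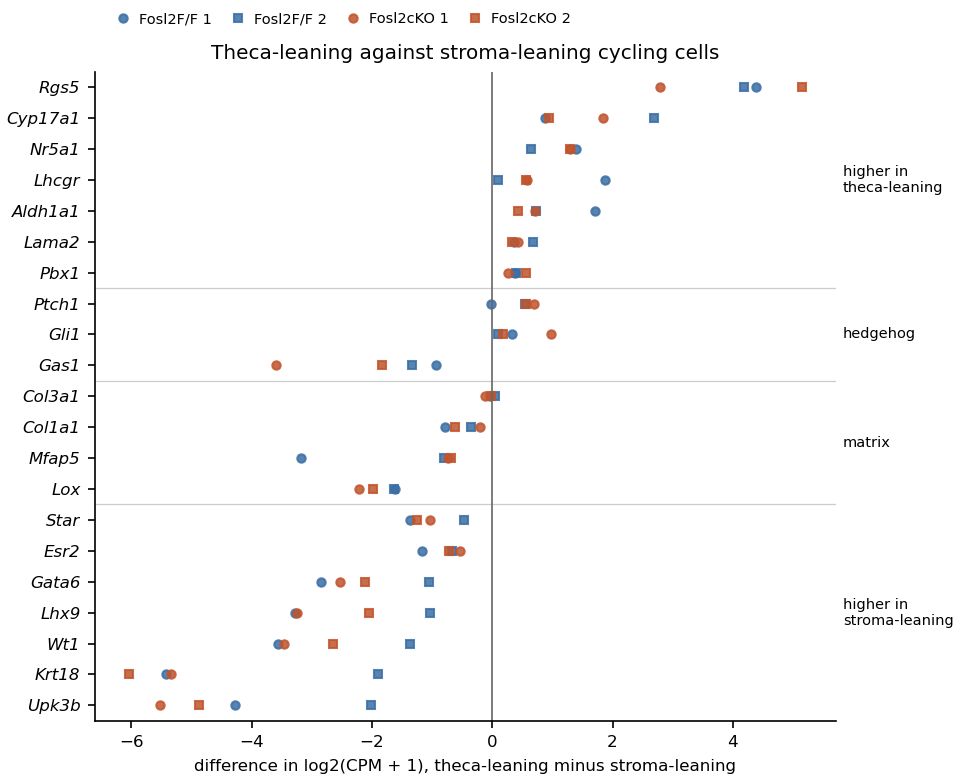
Difference in log2(CPM + 1) between theca-leaning and stroma-leaning members (horizontal axis) for 21 genes, with 1 point for each library, blue for Fosl2F/F and orange for Fosl2cKO. Rgs5 lies between 2.78 and 5.15 and Krt18 between -6.04 and -1.90, and the genes at the top and bottom keep their side of 0 in every library.

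Whether the genotype went with more or fewer cycling cells was asked from cell numbers. Members were 1.88%, 2.91%, 2.47% and 5.08% of all cells kept, with 95% exact binomial intervals of 1.61% to 2.19%, 2.70% to 3.13%, 2.12% to 2.85% and 4.59% to 5.60%, which cover counting error only. The means were 2.40% ± 0.73 (SD, n = 2) for Fosl2F/F and 3.77% ± 1.84 (SD, n = 2) for Fosl2cKO. The genotypes overlapped, since Fosl2cKO 1 lay below Fosl2F/F 2. The edgeR quasi-likelihood test over 5 disjoint classes of cells gave a log2 difference of 0.65 (SE 0.48) with a Benjamini-Hochberg adjusted p of 0.320, and the exact two-sided permutation p was 0.667. A higher number of cells of a type and a better recovery of them cannot be told apart in these shares.

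As a share of theca-stromal cells, members over members plus non-cycling cells, the values were 17.6%, 14.6%, 12.6% and 19.96%. The means were 16.1% ± 2.12 (SD, n = 2) and 16.3% ± 5.24 (SD, n = 2), with an exact two-sided permutation p of 1. Both extremes belonged to the libraries labelled Fosl2cKO. Among cells with over 2000 UMIs, unthinned, the shares were 17.9%, 17.8%, 12.8% and 20.3%. Cells were also thinned to 2000 UMIs before the rule was applied, with shallower cells left out. The shares were then 6.77%, 10.0%, 3.96% and 7.60%, and Fosl2F/F 2 became the highest. Members were 9.98%, 21.3%, 12.3% and 24.4% of all cells with at least 3 cycling genes, so the replicates of each genotype lay further apart than the genotypes.

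**Figure D5:**
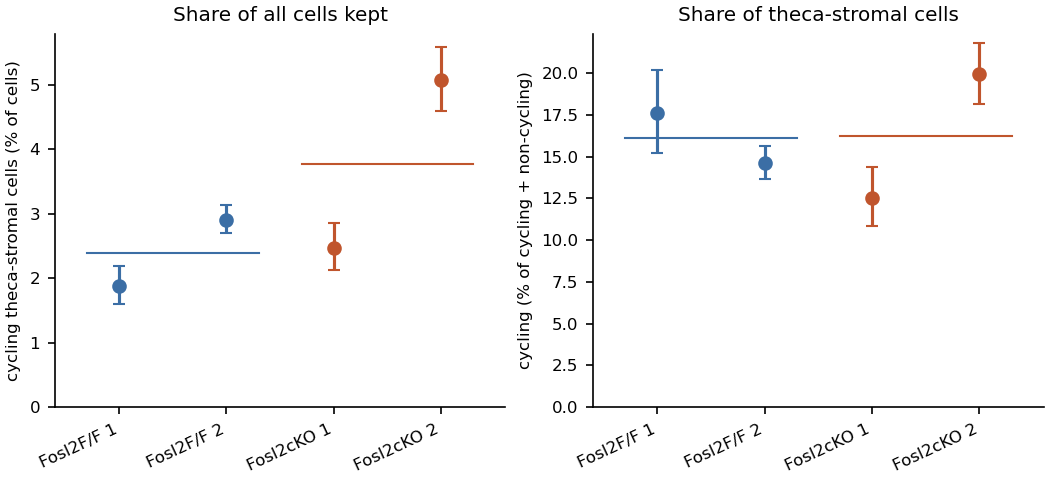
Cycling theca-stromal cells as a share of all cells kept (left, %) and of cycling plus non-cycling theca-stromal cells (right, %), with 1 point for each library, bars for 95% exact binomial intervals and lines for genotype means. Fosl2cKO 2 is highest in both panels, at 5.08% and 19.96%, and Fosl2cKO 1 lies below Fosl2F/F 2 in both.

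Gene levels in the members were compared between genotypes on the summed UMIs of each library, as CPM scaled by TMM (trimmed mean of M-values). The edgeR quasi-likelihood test covered 13609 genes and called 1 of them, with an adjusted p below 0.1 together with a log2 difference above 0.25 in size, which is 0.00735% of those tested, while 559 had an unadjusted p under 0.05. DESeq2 called 38. Both libraries labelled Fosl2cKO lay above both Fosl2F/F libraries for 15.9% of genes and below them for 16.9%. Fosl2 was at 200, 289, 295 and 192 CPM, a log2 difference of -0.01 (SE 0.30), with an adjusted p of 0.998 from edgeR.

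The gene called was Plb1, a phospholipase gene at chr5:32232708-32366520 on the plus strand of GRCm38, whose start lies 74.9 kb beyond the end of Fosl2 (chr5:32135801-32157842, plus strand). It held 3, 4, 333 and 1334 UMIs, or 0.897, 0.518, 72.4 and 138 CPM. Both libraries labelled Fosl2cKO were far above both Fosl2F/F libraries, with a log2 difference of 7.32 (SE 0.52) and an adjusted p of 0.0220 from edgeR. The call was lost without Fosl2F/F 1 (7.65, adjusted p 0.388), without Fosl2F/F 2 (6.85, adjusted p 0.627), without marked doublets (6.87, adjusted p 0.256) and with at least 4 cycling genes required (7.77, adjusted p 0.115). At 2000 UMIs per cell, 0%, 0.143%, 5.11% and 4.47% of members had a Plb1 UMI, against 0%, 0%, 5.96% and 9.46% of immune cells and 0%, 0%, 23.4% and 19.4% of cycling GCs. In the libraries labelled Fosl2cKO the members' share did not exceed that of the shallower immune cells at equal depth, and it was above the 2.49% and 3.22% of non-cycling theca-stromal cells, which lay within the members' 95% exact binomial intervals (2.36% to 9.49% and 2.63% to 7.07%). Unthinned, the shares were 22.2% and 19.5% of members and 12.1% and 14.9% of immune cells. No expression of Plb1 by the members is read from these shares. Absence of expression is not read either, as the immune cells are not an established level of free RNA.

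In the main edgeR fit the fixed lists held 0 called genes each, apart from Plb1, whereas DESeq2 also called the luteal gene Akr1c18. The lists' counts without overlap stand against 15.9% of all genes higher and 16.9% lower. Of 42 S-phase genes, 2 lay higher and 9 lower without overlap, with a median log2 difference of -0.19, and of 42 G2/M genes 1 lay higher and 13 lower, with a median of -0.30, against a median of -0.00 over all genes tested. Top2a, a gene on which the members were chosen, was at 396, 471, 388 and 416 CPM, given as a description. Of 9 hedgehog genes, 3 lay higher and 0 lower, with a median of 0.38. Ptch1 was at 323, 340, 331 and 560 CPM, a log2 difference of 0.43 (SE 0.30, edgeR adjusted p 0.968), so its higher mean came from Fosl2cKO 2. Of 17 growth factor receptors, 9 lay higher and 1 lower, with a median of 0.22 and adjusted p-values of 0.968 for all 10 in edgeR. Of 20 matrix genes, 3 lay higher and 2 lower, with a median of 0.16.

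Lists of other cell types also spread between the libraries. Of 7 oocyte genes, 5 lay lower in both libraries labelled Fosl2cKO, with a median of -2.10, and of 5 luteal genes 3 lay lower, with a median of -1.45, against 16.9% of all genes lower. The luteal gene Akr1c18, which degrades progesterone, was at 5.38, 43.5, 0.435 and 0.311 CPM in the members (edgeR adjusted p 0.844). Among fits on all 4 libraries, it was called by DESeq2, under the replicate block and with no filter on low counts. It was not called without marked doublets, with at least 4 cycling genes required or under the crossed pairing. The 8 epithelial genes had a median of 1.24, with 0 lying apart. Oocyte and luteal levels were highest in Fosl2F/F 2 and epithelial levels in Fosl2cKO 1, and the part of such cells in the other differences was not tested beyond leaving them out. Without members marked by these lists edgeR called 5 genes, and Plb1 stood at 4.79.

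Onecut2 and Cebpd, both named after their values had been seen, had the next smallest p-values. Cebpd, a transcription factor of inflammation, was at 45.7, 44.3, 254 and 180 CPM, a log2 difference of 2.27 (SE 0.26, edgeR adjusted p 0.187). Its replicates of each genotype lay close together and the genotypes far apart. Cebpd passed the threshold in 7 of 14 alternatives, and its difference ranged from 2.004 to 2.49 over all 14. Socs1, a feedback inhibitor of cytokine signals, was at 12.3, 14.9, 77.4 and 48.1 CPM (edgeR adjusted p 0.503) and was likewise named after its values had been seen. It was called by DESeq2, under the replicate block and the crossed pairing, and without the marker-carrying cells. It was not called without marked doublets or with at least 4 cycling genes required.

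The difference between genotypes in members was then tested against that in non-cycling theca-stromal cells, as the class by genotype term in edgeR with the library as block. Of 15136 genes tested, 8 passed, which is 0.0529%, with 7 higher and 1 lower, and 535 had an unadjusted p under 0.05. Cd74, H2-Eb1 and H2-Aa encode the machinery of class II antigen presentation. Cd74 was at 11.6, 33.7, 85.8 and 39.3 CPM in members and 26.2, 81.2, 48.7 and 15.4 CPM in non-cycling cells, so it was lower in members than in non-cycling cells in both Fosl2F/F libraries and higher in both libraries labelled Fosl2cKO. The epithelial adhesion gene Epcam was at 12.2, 9.75, 136 and 29.5 CPM in members and 14.8, 23.2, 52.5 and 9.54 CPM in non-cycling cells. Lgals2, a galectin, showed the smallest p and followed the pattern of Cd74, and it was not called with at least 4 cycling genes required (3.83, edgeR adjusted p 0.223). With cells carrying epithelial, oocyte or luteal markers left out, edgeR called 0 genes (351 at an unadjusted p under 0.05), but the term of Cd74 was 2.15 (adjusted p 0.115) against 2.31 with all members, while that of Epcam was -0.10 against 2.37. With marked doublets left out edgeR called 1 gene, Lgals2, and the term was 1.54 for Cd74 and 0.60 for H2-Aa, against 2.31 and 2.04 with all members.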

How the data were processed

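Reads were aligned by the authors with Cell Ranger to GRCm38 (7.1.0 in the file headers, another version in the study's methods; by default 7.1.0 also counts intronic reads, and the setting used is not given in the sources used here) and deposited raw UMI counts, whole numbers for each gene in each barcode, of the 4 libraries. The study's methods describe removal of background RNA with CellBender, and whether it is in the deposited counts is not given in the sources used here. Every library entered the comparisons, 0 columns stayed unused, and 32285 genes are listed.

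Members and gene lists were chosen with earlier results of these data known. Within each library the UMIs of all cells of a class were added up, so deeper cells weigh more, and divided by the class total (CPM). Differences between classes are on the log2(CPM + 1) scale, with genes counted at a mean of 20 CPM or more. Comparisons of genotypes used edgeR 4.0.16 (quasi-likelihood, filterByExpr, TMM, Benjamini-Hochberg adjustment), called at an adjusted p below 0.1 together with a log2 difference above 0.25 in size, after the study's filter for pathway analysis, which names no log base. Cell numbers were tested with edgeR over disjoint classes against the total of cells, at an adjusted p under 0.05, and shares with exact permutation tests (SciPy 1.17.1). Named genes are those of the fixed lists, the 15 with the largest and the 15 with the lowest difference from non-cycling cells at 50 CPM or more, and called genes with at least 20 CPM and no overlap, up to 5 in each direction. The other called genes were named after their values had been seen. Doublets were kept, and those scored by Scrublet (scanpy 1.11.5), the highest 0.8% of cells per 1000 cells of a library, were left out as an alternative. Further alternatives were other limits of the rule, thinning, leaving out each library, a replicate block, DESeq2 1.42.0 and limma 3.58.1. Leaving out cells with epithelial, oocyte or luteal markers, and a crossed pairing, were added after seeing the data. The edgeR steps were run on simulated data with 200 changed genes. The outcome is not given here, and no power or error rate of the comparisons is read from it. Gene positions came from GENCODE on GRCm38. The values of some list members are not reported here.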

Additional observations from a re-analysis of the deposited data

Results flagged for a closer look

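For 8 genes the difference between genotypes in the members departed from that in non-cycling theca-stromal cells, by the class by genotype term in edgeR (quasi-likelihood, p-values adjusted by Benjamini and Hochberg). The term, on the log2 scale, was 3.31 for Lgals2 (adjusted p 0.00581), 2.31 for Cd74 (0.0208), 1.97 for H2-Eb1 (0.0358) and 2.04 for H2-Aa (0.0790). Each of these 4 genes was lower in members than in non-cycling cells in both Fosl2F/F libraries and higher in both libraries labelled Fosl2cKO.

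The term was 2.37 for Epcam (adjusted p 0.0562), 2.31 for Lrrc7 (0.0714) and 4.71 for Ccl21a (0.0714), all from edgeR. Ccl21a, a chemokine, was at 0.612, 3.64, 73.4 and 0.726 CPM in members and 14.7, 17.0, 14.5 and 0.739 CPM in non-cycling cells, so its high value in the members lay in Fosl2cKO 1 alone. Lrrc7 was at 7.35, 10.0, 56.4 and 9.74 CPM in members, again highest in Fosl2cKO 1, the library whose members had the highest epithelial marker levels. Ttn, the giant muscle protein gene, had a term of -5.63 (edgeR adjusted p 0.0562), with 3.06, 24.3, 0.218 and 0.518 CPM in members and its high value in Fosl2F/F 2, where oocyte markers were highest. Without cells carrying epithelial, oocyte or luteal markers 0 of the 8 genes were called, but the term stayed at 2.15 for Cd74, 1.87 for H2-Eb1, 2.03 for H2-Aa (adjusted p 0.115 for each, from edgeR) and 5.14 for Ccl21a (adjusted p 0.106). In the same fit it was 1.92 for Lgals2, -2.31 for Ttn and -0.10 for Epcam, and Lrrc7 did not pass the filter on low counts. Without marked doublets the term was 1.54 for Cd74, 1.18 for H2-Eb1 and 0.60 for H2-Aa (edgeR adjusted p 0.153, 0.441 and 1), and 2.51 or more in size for the other 5 genes. Leaving out 1 library ended the calls of Ccl21a (2.72, adjusted p 1) and Lrrc7 (1.98, adjusted p 0.471) without Fosl2cKO 1, and of Ttn (-4.50, adjusted p 0.448) and H2-Aa (1.77, adjusted p 0.131) without Fosl2F/F 2, all from edgeR. With at least 4 cycling genes required, Cd74, H2-Eb1 and Epcam were called and the other 5 were not. The causes were not tested.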

How the results depend on the processing

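The share of all cells in the rule kept its direction and did not pass the threshold in any of the 15 alternatives, with log2 differences of 0.04 to 1.08, which were also the values without each library in turn (0.61 under the replicate block). The share of theca-stromal cells that cycle was 0.01 on the log2 scale, and its direction changed to -0.018 without doublets, -0.092 with at least 4 cycling genes, -0.11 with over 2000 UMIs, -0.10 with at least 3 mesenchymal genes, -0.0026 without cells carrying epithelial, oocyte or luteal markers, -0.54 after thinning and -0.021 under the replicate block, and ran from -0.36 to 0.31 without each library. The difference in the Cyp17a1 share was 0.60 points with at least 2 UMIs and ran from -6.06 to 2.10 without each library.

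Genes called between genotypes (1) numbered 449 with no filter, 0 without doublets, 0 with at least 4 cycling genes, 5 without the marker-carrying cells, 96 under the replicate block, 38 with DESeq2 and 0 to 434 without each library (0 without either Fosl2F/F library, 244 without Fosl2cKO 1, 434 without Fosl2cKO 2). At 0 calls edgeR had 428 to 869 genes with an unadjusted p under 0.05. Genes called for the class by genotype term (8) numbered 191 with no filter, 3 at an adjusted p under 0.05, 1 without doublets, 3 with at least 4 cycling genes, 15 with over 2000 UMIs, 0 without the marker-carrying cells, 15 under the replicate block and 7 to 56 without each library (56 without Fosl2F/F 1, 37 without Fosl2F/F 2, 7 without Fosl2cKO 1, 33 without Fosl2cKO 2). Deviations of same-numbered libraries correlated at -0.20 over 7421 genes. With 2 libraries a genotype this is a single value and cannot show whether the numbers pair the libraries. A crossed pairing, added after seeing the data, gave 4 and 74 calls.

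Among named genes, the genotype difference changed sign for Fosl2 (0.0070 with no filter, 0.011 without doublets, 0.064 without TMM, -0.34 to 0.30 without each library) and Gli1 (0.0073 without TMM, -0.35 to 0.25), and without single libraries for Cyp17a1 (-5.44 to 0.85), Ptch1 (-0.0099 to 0.76), Hhip (-0.53 to 0.76) and Top2a (-0.21 to 0.030). Epcam's term became -0.10 without the marker-carrying cells. The causes were not tested. Each genotype had 2 libraries, and the numbers of calls moved with the library left out and with the tool. The lack of a call is therefore not read as the lack of a difference.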

Other observations

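Genes that were lower in members than in non-cycling theca-stromal cells in all 4 libraries were longer than those that were higher. Over 7788 genes at 20 CPM or more with a span in the annotation, from first to last annotated base including introns, the median span was 31.7 kb. It was 62.9 kb for the genes lower in every library and 18.6 kb for those higher in every library. With the genes divided by span into 4 groups of equal size, in the shortest group (median 6.31 kb) 48.3% were higher and 17.9% lower, and in the longest group (median 138 kb) 10.2% were higher and 50.7% lower, with median log2 differences there of -0.25, -0.19, -0.09 and -0.29. Nlgn1, Pcdh9 and Dpp6, among the genes lowest in members, span 906, 877 and 910 kb. Against cycling GCs no such split was seen, with medians of 33.0 kb for genes higher and 31.2 kb for genes lower in members in every library. The members were deeper than the non-cycling cells and close to the cycling GCs in depth, with medians of 20621, 7711.5, 25450 and 23606 UMIs in the latter, and the part of depth was not tested.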
